A study of Mus musculus with 2 samples.

Results

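The miRNA genes examined here are 6 genes known from microglia and blood-borne immune cells (Mir142, Mir146, Mir146b, Mir150, Mir155 and Mir223), measured in the hippocampus of young mice. They are defined by name, through their Ensembl identifiers in GENCODE M21, with no threshold on their values, and are 6 of the 2202 miRNA genes in each count table. The data are 2 libraries of short RNA, biological replicates 1 and 2 of a single group, from hippocampal tissue taken at 25 days of age from females of B6CASTF1/J, a strain name for F1 hybrids between C57BL/6J and CAST/EiJ. No treatment or mutation is named, and the labels speak of a hippocampal layer without saying which. The labels list 2 tissue samples under the same donor identifier and do not say whether they came from separate animals, so the spread between the libraries may be partly technical. With 1 group there is no comparison of conditions, and what can be compared are the levels of the 6 genes with each other and between the libraries.

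A miRNA gene encodes a short RNA hairpin, from which a mature strand of about the length of a sequenced read is cut and loaded into an Argonaute protein, where the bases of its seed select target mRNAs. Microglia are the resident macrophages of the brain, and share much of their miRNA repertoire with other myeloid cells. Of the genes examined here, Mir142 is a marker of the whole blood lineage, Mir223 of myeloid cells and above all neutrophils, and Mir150 of mature lymphocytes. Mir155 and Mir146 are induced by inflammatory signals in macrophages, Mir155 as an amplifier of the response and Mir146 as a brake on it. In bulk tissue, fewer cells of a type and less RNA per cell cannot be told apart.

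The mature sequences show which of the 6 genes could be confused with each other or with another locus, since a read with several matching places is left out of every gene. All 6 genes have an entry in the RefSeq table for GRCm38.p6, and both arms are listed for 5 of them. The sequences below run from 5′ to 3′, with the seed, bases 2 to 8, in capitals.
miR-146a-5p, from Mir146: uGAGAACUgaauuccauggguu
miR-146b-5p, from Mir146b: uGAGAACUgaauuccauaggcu
miR-142a-5p, from Mir142: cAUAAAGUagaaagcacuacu
miR-142a-3p, from Mir142: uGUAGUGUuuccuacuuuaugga
miR-155-5p, from Mir155: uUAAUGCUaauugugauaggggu
miR-223-3p, from Mir223: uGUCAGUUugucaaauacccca
miR-150-3p, from Mir150: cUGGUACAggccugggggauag
miR-150-5p is named only. It is not among the listed sequences, so the comparisons of seeds and of shared stretches below do not cover it.
Among the 11 listed mature sequences of the 6 genes, the only seed that recurs is GAGAACU. It is shared by miR-146a-5p and miR-146b-5p and by no other of the 1738 mature sequences in the table. These miRNAs agree at 20 of 22 positions and differ by G18A and U21C, with positions counted from 1 at the 5′ end and the base of miR-146a-5p given first. Their first 17 bases are identical, so a read that stops there would match both loci. On the same strand, no other listed mature sequence of the 6 genes shares more than 13 bases in a row with another gene's hairpin in the table.

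The main strand column held 5481053 reads in miRNA genes in replicate 1 and 4266963 in replicate 2, and levels are counts per 1000000 of these (CPM). The libraries stand apart from each other: 188 of the 433 genes with at least 2 CPM in each library, 43.4%, differed at least 2-fold between them, and the biological coefficient of variation from an intercept-only edgeR fit was 0.665. Values of the 6 genes are therefore given for each library. The tissue label was checked only as brain tissue, not as to region or age, with neuronal miRNA genes. Of these, 8 of 10 reached 2 CPM in each library, led by Mir149, Mir128-1 and Mir132. Their summed levels were 59174 CPM in replicate 1 and 82726 CPM in replicate 2. The other 2 are the copies Mir124a-2 and Mir124a-3, and reads that match more than 1 Mir124a copy enter none of them. Of 9 striated muscle genes, led by Mir206, Mir499 and Mir208a, only Mir206 reached 2 CPM in each library. It was at 26.8 CPM in replicate 1 and 38.0 CPM in replicate 2. The 4 with no count in either library were Mir1a-1, Mir133a-1, Mir133a-2 and Mir133b. Reads that match more than 1 Mir1a copy or more than 1 Mir133a copy also enter none of them. The zeros of Mir1a-1, Mir133a-1 and Mir133a-2 therefore do not bear on the tissue label. Mir122, the main miRNA of hepatocytes, was at 32.3 CPM in replicate 1 and 141 CPM in replicate 2. Among genes of other tissues and of maturation, named after their values were seen, the libraries differed far more: Mir200c of epithelia was at 19.5 CPM in replicate 1 and 2706 CPM in replicate 2, Mir182 of sensory cells at 10.2 and 895 CPM, and Mir29a, which rises as the brain matures, at 7438 and 248 CPM.

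Together the 6 immune genes made up a small share of the miRNA counts. They held 10905 counts in replicate 1, 0.199% of the library (95% Clopper-Pearson interval 0.195 to 0.203), and 4699 counts in replicate 2, 0.110% (0.107 to 0.113). The mean share was 0.155% ± 0.0628 (SD, n = 2). Most of it was Mir150 and Mir146, which held 61.1% and 34.3% of the 6 genes' counts in replicate 1 and 36.1% and 45.4% in replicate 2. Mir142 held 2.15% and 8.92%, Mir155 1.89% and 7.17%, Mir223 0.468% and 2.28%, and Mir146b 0.156% and 0.170%, each in replicates 1 and 2.

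**Figure D1:**
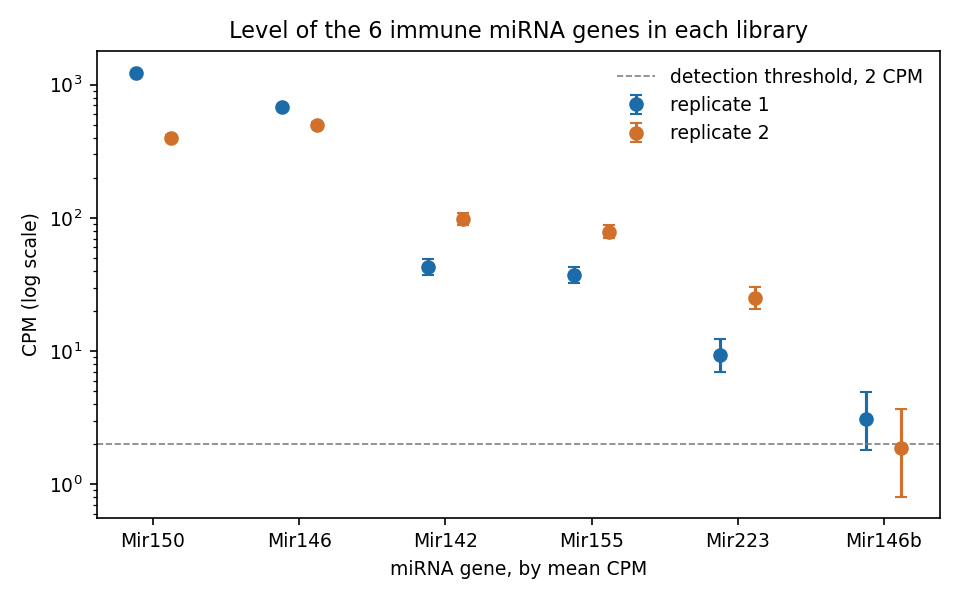
Level of each gene in CPM, on a log axis, in replicate 1 (blue) and replicate 2 (orange), with exact Poisson 95% intervals as bars and the threshold of 2 CPM as a dashed line. Mir150 and Mir146 sit at 397 CPM or more in both libraries, Mir142 and Mir155 between 37.6 and 98.2 CPM, Mir223 at 9.30 and 25.1 CPM, and Mir146b at 3.10 and 1.87 CPM.

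The order of the genes by mean level was Mir150, Mir146, Mir142, Mir155, Mir223 and Mir146b, as the plot of levels shows. Neighbours in that order were separated in both libraries between Mir146 and Mir142, between Mir155 and Mir223, and between Mir223 and Mir146b. Mir150 and Mir146 were not separated, since Mir150 was 1.78 times Mir146 in replicate 1 and 0.795 times Mir146 in replicate 2. The ranges of Mir142 and Mir155 also overlapped, although Mir142 was the higher of the pair in both libraries, by 1.14 times (95% interval 0.942 to 1.38) in replicate 1 and 1.24 times (1.07 to 1.44) in replicate 2. Mature miRNAs are of nearly the same length, so no length correction was made, but ligation and amplification can favour some sequences, which limits comparisons of level between genes.

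Mir150, which restrains the transcription factor Myb during lymphocyte maturation, had the highest mean level of the 6 genes and the largest spread relative to its mean. It had 6661 counts in replicate 1 and 1696 in replicate 2, or 1215 and 397 CPM, a mean of 806 ± 578 CPM (SD, n = 2). It ranked 103 of 2202 genes in replicate 1 and 151 in replicate 2. The gene (ENSMUSG00000065495.1) lies on chromosome 7 from 45121757 to 45121821 of mm10 on the plus strand, in no other annotated gene and 96 bases before Gm45552.

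Mir146 is switched on by NF-kB and represses the signalling proteins Traf6 and Irak1. Scaled by library totals, it differed least between the libraries among those of the 6 genes detected in both. Under TMM its log2 ratio of 0.73 was about as large as that of Mir155, -0.77. It had 3735 counts in replicate 1 and 2132 in replicate 2, or 681 and 499.7 CPM, a mean of 591 ± 129 CPM (SD, n = 2). The gene (ENSMUSG00000065601.1) lies on chromosome 11 from 43374397 to 43374461 on the minus strand, with no other annotated gene within 10000 bases. Its seed twin Mir146b (ENSMUSG00000070127.2), which occupies 46342762 to 46342870 of chromosome 19 inside an intron of Mfsd13a, was near the limit of detection. It had 17 counts in replicate 1 and 8 in replicate 2, or 3.10 CPM (95% Poisson interval 1.81 to 4.97) and 1.87 CPM (0.809 to 3.69), and was the only one of the 6 genes below 2 CPM in a library. The counts of Mir146 were 220 times (137 to 378) those of Mir146b in replicate 1 and 267 times (135 to 618) in replicate 2. Of the pair that shares the seed GAGAACU, nearly all counts were thus assigned to Mir146 in both libraries. Counts are per hairpin, so they do not separate miR-146a-5p, which carries this seed, from miR-146a-3p, which does not.

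Mir142, expressed in all lineages of blood cells, was below Mir146 by 15.9 times in replicate 1 and 5.09 times in replicate 2. It had 235 counts in replicate 1 and 419 in replicate 2, or 42.9 CPM (95% Poisson interval 37.6 to 48.7) and 98.2 CPM (89.0 to 108), a mean of 70.5 ± 39.1 CPM (SD, n = 2). The gene (ENSMUSG00000105196.1) lies on chromosome 11 from 87756864 to 87756927 on the plus strand, in an intron of its host transcript Mir142hg. It lies wholly inside Mir142b, a hairpin annotated on the minus strand from 87756841 to 87756955. Their hairpins are printed here with the mature arms in capitals, because the reverse complement of both Mir142 arms lies in Mir142b.
Mir142, plus strand: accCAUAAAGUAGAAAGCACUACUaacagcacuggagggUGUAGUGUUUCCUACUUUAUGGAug
Mir142b, minus strand: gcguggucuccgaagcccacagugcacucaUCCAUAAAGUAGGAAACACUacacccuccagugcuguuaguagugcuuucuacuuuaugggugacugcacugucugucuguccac
Strand decides the count of this locus. In the column read as the count without strand, Mir142 and Mir142b had 0 counts in both libraries. In the main strand column all reads of the locus, 235 and 419, stood with Mir142 and 0 with Mir142b. In the opposite strand column the same 235 and 419 reads stood with Mir142b. No read of Mir142b itself was therefore counted, which allows up to 3 counts, 0.547 CPM in replicate 1 and 0.703 CPM in replicate 2. The other 5 genes had the same counts with and without strand, except Mir150 in replicate 2, with 1698 without strand and 2 on the opposite strand.

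**Figure D2:**
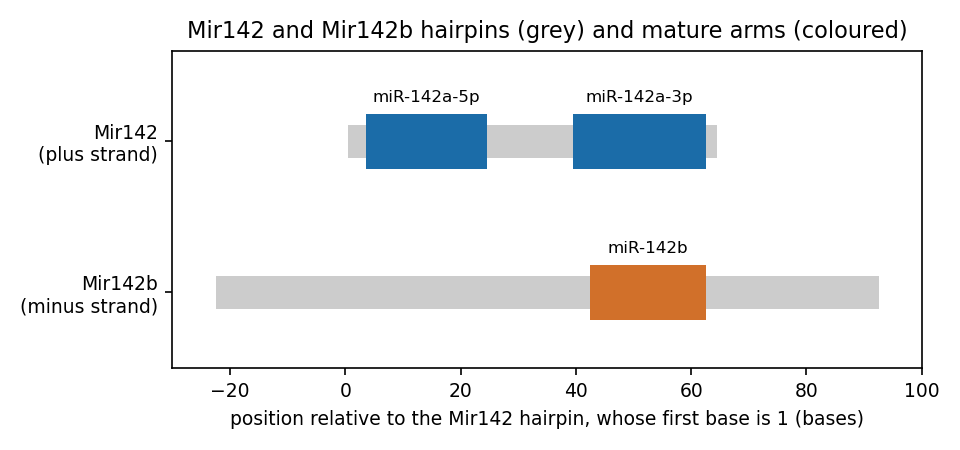
Map of the Mir142 locus, with the x axis in bases and the first base of the Mir142 hairpin at 1. Grey bars are the hairpins of Mir142 (plus strand, 64 bases) and Mir142b (minus strand, 115 bases) and coloured bars the annotated mature arms, and miR-142b lies opposite miR-142a-3p.

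Mir155, cut from the transcript once known as Bic and a repressor of the cytokine brake Socs1 and the phosphatase Inpp5d, was at a level close to Mir142. It had 206 counts in replicate 1 and 337 in replicate 2, or 37.6 CPM (95% Poisson interval 32.6 to 43.1) and 79.0 CPM (70.8 to 87.9), a mean of 58.3 ± 29.3 CPM (SD, n = 2). The gene (ENSMUSG00000065397.1) lies on chromosome 16 from 84714140 to 84714204 on the plus strand, in an exon of both annotated transcripts of Mir155hg. Mir155 was 18.1 times lower than Mir146 in replicate 1 (15.75 to 20.96) and 6.33 times lower in replicate 2 (5.64 to 7.12).

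Mir223, which limits granulocyte production and activation and targets Mef2c, was the lowest of the genes detected in both libraries. It had 51 counts in replicate 1 and 107 in replicate 2, or 9.30 CPM (95% Poisson interval 6.93 to 12.2) and 25.1 CPM (20.6 to 30.3), a mean of 17.2 ± 11.2 CPM (SD, n = 2). The gene (ENSMUSG00000076066.1) lies on chromosome X from 96242817 to 96242926 on the plus strand, in an exon of both annotated transcripts of the noncoding gene F630028O10Rik. Its nearest protein-coding neighbour is Vsig4, a macrophage complement receptor gene, 4277 bases away on the minus strand. Mir142 had 4.61 times (3.39 to 6.37) the counts of Mir223 in replicate 1 and 3.92 times (3.16 to 4.89) in replicate 2.

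Between the libraries the genes went in opposite directions. Mir150 was 3.06-fold higher in replicate 1 (95% interval 2.90 to 3.23) and Mir146 1.36-fold higher (1.29 to 1.44). Mir142 was 2.29-fold lower in replicate 1 (1.95 to 2.70), Mir155 2.10-fold lower (1.76 to 2.51) and Mir223 2.695-fold lower (1.91 to 3.84). Mir146b was 1.65 times as high in replicate 1, with an interval of 0.677 to 4.43 that includes no difference. Of the genes that passed the filter of at least 10 counts in sum, all 6 among them, a two-sided exact binomial test with p-values adjusted by Benjamini-Hochberg called 5 of the 6 different, 2 higher and 3 lower in replicate 1. The background is high: the same test called 68.9% of 579 tested genes, 26.9% as higher and 42.0% as lower in replicate 1, so that 5 of 6 is no result about these genes. With a difference of at least 1.5-fold also required, 4 of the 6 were called, beside 55.8% of the tested genes.

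The adjusted p of the exact binomial test was 1.98e-30 for Mir146, 7.67e-25 for Mir142, 3.78e-17 for Mir155, 3.42e-09 for Mir223 and 0.372 for Mir146b, and too small to be represented for Mir150. The test covers counting error of these 2 libraries and says nothing of a condition. The median log2 ratio of replicate 1 over replicate 2, on CPM + 1, was -0.30 over the 6 genes and -0.24 over all tested genes. Among the 433 genes with at least 2 CPM in each library, 23.1% differed as much as Mir150 or more in either direction, 28.9% as much as Mir223, 34.2% as much as Mir142, 39.7% as much as Mir155 and 70.4% as much as Mir146. None of the 6 genes stood at the edge of the scatter between the libraries, as the plot of all tested genes shows. Scaling by TMM moved the median log2 ratio of the 433 genes by 0.27 and DESeq2 size factors by 0.29. Under TMM the log2 ratio was 1.89 for Mir150, 0.73 for Mir146, 0.71 for Mir146b, -0.90 for Mir142, -0.77 for Mir155 and -1.08 for Mir223, so each kept its direction. The test then called the same 5 genes, with 34.5% of tested genes higher and 33.9% lower in replicate 1. With DESeq2 size factors it called the same 5 as well, with 34.5% of tested genes higher and 33.2% lower.

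**Figure D3:**
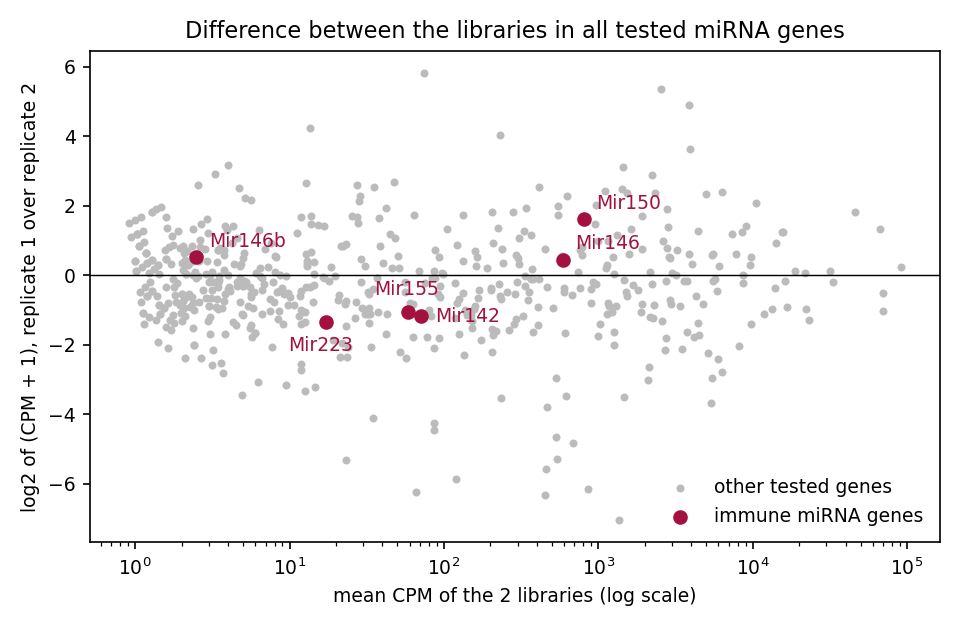
Each point is 1 of the 579 tested miRNA genes, at its mean CPM (x, log axis) and its log2 ratio of CPM + 1, replicate 1 over replicate 2 (y), with the 6 immune genes in dark red. Mir150 at 1.61 and Mir223 at -1.34 are the farthest of the 6 from 0, and all 6 lie within the cloud of other genes.

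The composition of the 6 genes therefore differed between the libraries. Mir150 had 28.3 times the counts of Mir142 in replicate 1 (24.9 to 32.4) and 4.05 times in replicate 2 (3.64 to 4.52). By contrast, the ratios among Mir142, Mir155 and Mir223 had overlapping intervals in both libraries, with Mir155 at 4.04 times Mir223 in replicate 1 (2.96 to 5.60) and 3.15 times in replicate 2 (2.53 to 3.95). These 3 genes were grouped after their values were seen, so no test was made. Together they had 492 counts in replicate 1, 89.8 CPM, and 863 counts in replicate 2, 202 CPM.

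Markers of other cells in the tissue also differed between the libraries. The 3 red blood cell genes were all detected, and their summed level was 88.1 CPM in replicate 1 and 65.9 CPM in replicate 2. Mir451a, processed by Argonaute 2 without Dicer, was at 41.4 and 14.1 CPM, 2.95-fold higher in replicate 1 (2.21 to 3.98), and its neighbour in the same cluster, Mir144, at 24.8 and 8.67 CPM, 2.86-fold higher (1.98 to 4.23). Mir486 was at 21.9 and 43.1 CPM, 1.97-fold lower in replicate 1 (1.56 to 2.50). Mir451a and Mir144 thus lay on the side of Mir150, and Mir486 on the side of Mir142, Mir155 and Mir223. The part of remaining blood in the levels of the immune genes was not tested.

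The 3 endothelial and mural genes were all called higher in replicate 1, beside 26.9% of all tested genes. Under TMM all 3 were again called higher, beside 34.5%. Their summed level was 21958 CPM in replicate 1 and 12895 CPM in replicate 2. The fold was 1.90 for the endothelial Mir126a (1.88 to 1.92), and 1.05 for Mir143 (1.03 to 1.08) and 1.33 for Mir145a (1.19 to 1.49), which mark mural cells. The 3 oligodendrocyte genes summed to 6503 CPM in replicate 1 and 939 CPM in replicate 2. Mir219a-2 and Mir338 were higher in replicate 1 and Mir219a-1 lower. Mir219a-1 and Mir219a-2 are copies, and reads that match both enter neither, so the sums leave out such reads. Of 5 choroid plexus and ciliated cell genes, 4 were detected and 3 (Mir204, Mir449a and Mir34c) were called lower in replicate 1, beside 42.0% of all tested genes. The list summed to 983 CPM in replicate 1 and 2303 CPM in replicate 2, of which Mir449a alone held 101 and 1139 CPM. Under TMM the log2 ratio was -0.10 for Mir204 and -0.19 for Mir34c. None of the genes in these lists was at 0 in both libraries. Their part in the differences of the immune genes was not tested.

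**Figure D4:**
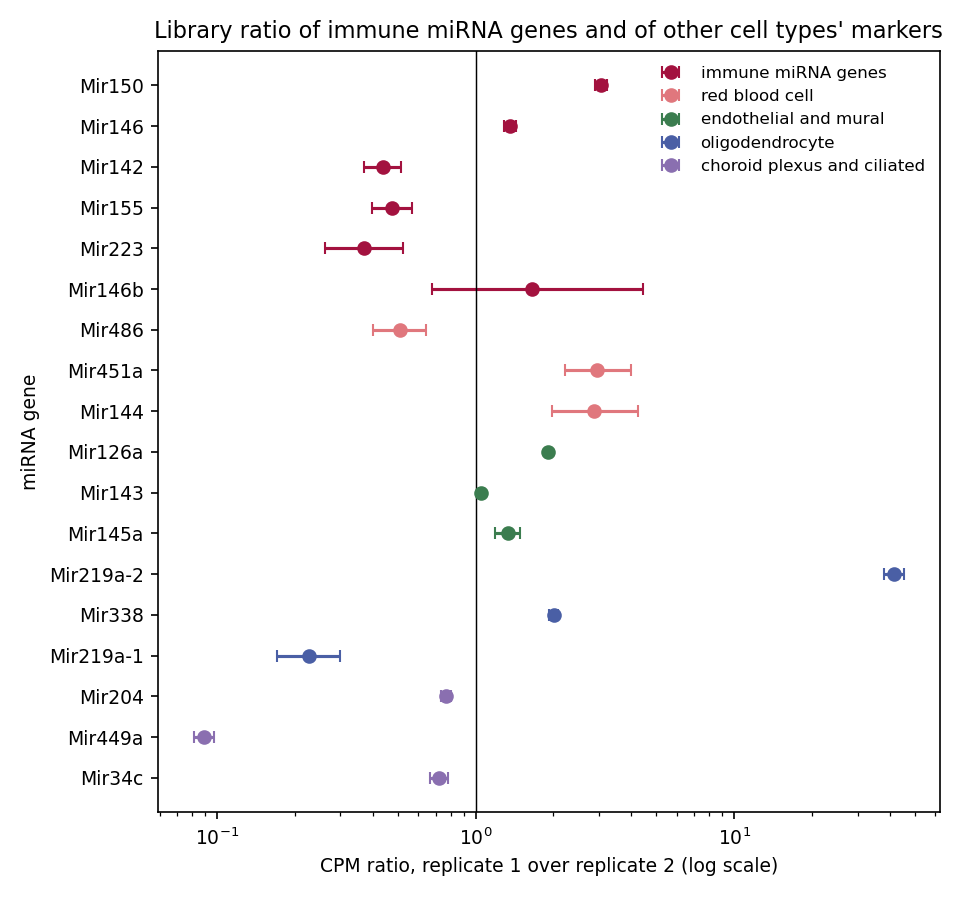
CPM ratio of replicate 1 over replicate 2, on a log axis, for the 6 immune genes and up to 3 marker genes each of 4 other cell classes, with exact 95% intervals from the counts as bars. Mir150 lies beside Mir451a and Mir144 near a ratio of 3, and Mir142, Mir155 and Mir223 lie between 0.371 and 0.476. Mir486, also a red blood cell gene, lies on the other side from Mir451a and Mir144, at 0.508.

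Other miRNA genes with known parts in immune cells spanned a wider range of levels. Neurons and glia also express many of them, and the source cells of the 6 genes are not known either. Of 16 other genes linked to the innate response, 12 reached 2 CPM in each library, and of the 15 tested 5 were called higher and 6 lower in replicate 1, beside 26.9% and 42.0% of all tested genes. Their median log2 ratio was -0.41, or -0.18 under TMM, against -0.24 over all tested genes with library totals. The highest were Mirlet7e, Mir125a and Mir99b, which form a cluster induced in macrophages by endotoxin, at mean levels of 21708 ± 826, 18774 ± 1094 and 15786 ± 9058 CPM (SD, n = 2). Mir99b had the widest gap of these, with 22191 CPM in replicate 1 and 9382 CPM in replicate 2. The copies of Mir9, Mir124a and Mir125b on the list share their mature sequences with each other, so their counts leave out reads that match more than 1 copy. Genes of this list with a narrower macrophage link, named here after their values were seen, were near the limit of detection. Mir147, induced through Toll-like receptors, had 13 counts in replicate 1 and 10 in replicate 2, and Mir511, hosted by the mannose receptor gene Mrc1, had 6 and 12 counts, and neither passed the exact binomial test (adjusted p = 1 and 0.0828).

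All 12 other genes linked to lymphocytes were detected, 2 of them called higher and 9 lower in replicate 1, beside 26.9% and 42.0% of all tested genes. With TMM 4 were higher and 8 lower, beside 34.5% and 33.9%, and with DESeq2 size factors the counts were also 4 and 8. Their median log2 ratio was -0.97, or -0.69 under TMM. The highest were Mir342, hosted by Evl, at 5876 ± 1320 CPM, Mir17, which promotes lymphocyte survival, at 5357 ± 6470 CPM, and Mir181b-2 at 3741 ± 2709 CPM (SD, n = 2). Mir17 was 12.7-fold lower in replicate 1 (12.3 to 13.1), Mir181b-2 3.10-fold lower (3.03 to 3.17) and Mir342 1.38-fold lower (1.36 to 1.40). The 2 genes called higher in replicate 1, on the side of Mir150, were Mir181a-2 at 3.42-fold (2.81 to 4.19) and Mir326 at 1.48-fold (1.40 to 1.56). Mir181a-2 was at 98.5 CPM in replicate 1 and 28.8 CPM in replicate 2. Its copy Mir181a-1 went the other way, at 506 and 2024 CPM, 4.00-fold lower in replicate 1 (3.83 to 4.18). Mir92-1 and the Mir16, Mir181a and Mir181b genes of the list have copies elsewhere in the genome, with the same limit.

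The genes whose pair of levels came closest to each immune gene were found by the distance in log2(CPM + 1) over the 2 libraries. For Mir150 they were Mir1839 (distance 0.348) and Mir1249 (0.401), and for Mir146 they were Mir326 (0.0945) and Mir455 (0.518). For Mir142 they were Mir551b (0.281) and Mir148a (0.311), for Mir155 mmu-mir-3535 (0.217) and Mir551b (0.270), and for Mir223 Gm23935 (0.377) and Mir3097 (0.453). With 2 libraries such nearness is a likeness of level only. None of the nearest genes was another of the 6.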

How the data were processed

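The deposited tables hold raw counts of reads for each miRNA gene, whole numbers in 3 value columns with no header. Per the deposited text files, the assembly was mm10 and the annotation GENCODE M21; the aligner is not given in the sources used here. From the values, the second column was read as the main strand, the first as the count without strand and the third as the opposite strand. The 4 rows that name no gene stayed out of library sizes; reads with several matching places were 41.9% of all reads in replicate 1 and 46.4% in replicate 2. Reads of the CAST/EiJ allele may be placed less often on mm10.

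All 2202 identifiers matched miRNA genes of GENCODE M21. A gene was detected at 2 CPM or more in each library. Genes with at least 10 counts in sum (579) were tested with a two-sided exact binomial test given the totals. The p-values were adjusted by Benjamini-Hochberg over all of these genes, at a threshold of 0.05. The test was tried on simulated data with counting error only. These libraries differ by more than that, so the trial does not show how the test behaves on them. Log2 ratios use a pseudocount of 1 CPM, and folds use none. Intervals are exact, at 95%, and cover only the counting error of independent reads. PCR copies are not independent, so the intervals may be too narrow. A chi-square statistic of 2295 per degree of freedom (578 degrees of freedom) shows that the tables differ beyond sampling noise. Python 3.11.15, scipy 1.17.1, R 4.3.3, edgeR 4.0.16 (TMM, dispersion) and DESeq2 1.42.0 (size factors) were used, with scaling factors from the tested genes.

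The 6 genes and the 9 lists of other genes were chosen with earlier results of these data known. Genes named by rule are the 6, the 3 highest of each list, the 2 nearest genes in level, and annotated genes within 10000 bases, of which not all are reported here. Alternatives were another column, scaling, denominator or filter, a minimum fold, and leaving out each replicate.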

Additional observations from a re-analysis of the deposited data

How the results depend on the processing

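The share of counts in the 6 genes, 0.155% on average, ranged from 0.110% to 0.199% when either replicate was left out. It was 0.0524% with all reads of the table as the denominator and 0.297% without the 10 highest genes in the denominator, both by construction of the denominator. The 5 genes called different between the libraries stayed at 5 with TMM scaling, with DESeq2 size factors and with no filter on low counts. They were 4 without strand, where Mir142 has no counts, and 4 with at least 1.5-fold required, which Mir146 does not reach. Over all tested genes the count was 399 of 579 in the main setting. It was 396 of 579 with TMM, 392 of 579 with DESeq2 size factors and 411 of 820 with no filter. Without strand it was 370 of 554, and with at least 1.5-fold required 323 of 579. Of the genes called, 39.1% were higher in replicate 1 with library totals, 50.5% with TMM and 51.0% with DESeq2 size factors. No log2 ratio of the 6 genes changed sign under the alternatives that gave one. Leaving out a replicate leaves 1 library, so the test between libraries cannot be run. No paired analysis was possible because there is 1 group. Depth limits Mir146b most, with 17 and 8 counts.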
